A study of Sus scrofa with 40 samples.

Results

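THBD, TFPI, F5 and PLAU are 4 genes with which the endothelium, the cell layer that lines blood vessels, takes part in blood clotting and in the removal of clots. Their probe sets were found by the gene symbol or the full gene name in the authors' deposited tables, with the rule that a gene with several probe sets is represented by the one of highest mean level. Each gene had exactly 1 probe set among those named there, and probe sets without a name were not searched. The members are therefore 4 of the 23999 gene probe sets on the array. Their NCBI gene IDs are 100157642 for THBD, 100155068 for TFPI, 397217 for F5 and 396985 for PLAU. The title in the tables for PLAU reads only plasminogen activator, and the symbol decided its identity. The 4 genes were chosen by their levels in the 6 groups and by their differences between regenerated and native cells in these same arrays. Their levels, pair differences and diet differences are therefore given as a description without a test.

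The arrays measured total RNA of primary coronary endothelial cultures from female farm pigs aged 4 months, grown for 10 days without passage. Regenerated cells were scraped from the stretch of the left anterior descending artery (LAD) that had been stripped of its endothelium earlier, and native cells from the left circumflex artery (LCX) of the same heart. The 6 groups were regenerated and native cells of pigs fed high cholesterol (CHL, 6 animals), of pigs in the PUFA-rich group, where PUFA stands for polyunsaturated fatty acids and the study's title says fish oil (FO, 6 animals), and of control pigs (8 animals), with 1 array per culture and 40 arrays in all. All animals had the same operated artery, no group had native cells of the LAD or regenerated cells of the LCX, and cell source and artery therefore cannot be told apart. Each culture mixes whatever cells the scraping released, and a lower signal from fewer cells of a type and one from less RNA per cell cannot be told apart.

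In the clotting cascade, tissue factor bound to factor VIIa activates factor X, and factor Xa with its cofactor factor Va turns prothrombin into thrombin, which makes fibrin. F5 encodes factor V, the precursor of that cofactor. TFPI encodes tissue factor pathway inhibitor, which blocks factor Xa and the tissue factor complex, and THBD encodes thrombomodulin, the endothelial receptor that binds thrombin and redirects it to activate protein C, which in turn inactivates factor Va. PLAU encodes urokinase, a protease that converts plasminogen into plasmin, the enzyme that dissolves fibrin, and that also takes part in cell migration and matrix breakdown.

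The deposited values were linear MAS5 signals scaled to a trimmed mean of 500.1 on every array, and differences below are on the scale of log2(signal + 16), on which a change of a dim probe set looks smaller than it is. The median signal of an array ran from 75.7 to 121. The defining endothelial markers PECAM1 and CDH5 had group means of 12.73 to 13.08 and of 12.86 to 13.27 log2, while VWF, another of them, lay at 5.96 to 6.30 log2, not far above the filter on low values at 5.08. The mean log2 level of the 12 measured endothelial markers of 16 was 9.12 to 9.40 over the 6 groups. Of the smooth muscle list 12 of 13 genes were measured and all 12 passed the filter, with group means of 8.20 to 11.82 log2 for ACTA2 and 11.29 to 12.75 log2 for TAGLN, and this list was 1.02 ± 0.86 log2 higher in regenerated than in native cells of control pigs (SD, n = 8 pairs). The means of the fibroblast list (8 of 12 genes measured) and the leukocyte list (3 of 10) differed by -0.46 to 0.10 log2 in each diet. The leukocyte list had 2 genes past the filter and group means of 5.14 to 5.48 log2, near that filter, so it says little about leukocytes. Fibroblast genes differed in opposite directions. POSTN averaged -2.69, -3.58 and -2.10 log2 and DCN -1.16, -1.11 and -0.17 log2 in CHL, FO and control pairs, while FAP averaged 0.93, 1.57 and 1.65 log2, and the part of these genes in the results below was not tested. The regenerated arrays of control animal 6 and FO animal 3 had degraded RNA by the 3'/5' ratios of control probe sets. The regenerated arrays of control animals 4 and 5 had the next highest actin ratios. These were 4.48 and 6.89, against 1.39 and 1.43 in their native arrays, and their part in the differences of these pairs was not tested. In 3 pairs, control animals 4 and 5 and FO animal 6, the 2 arrays did not vary together, and in FO pair 6 the 2 labels carry unlike animal numbers. The labels of 5 control pairs carry MA numbers in place of artery names and do not show a shared animal.

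All 4 genes passed the filter, with mean log2 levels over the 40 arrays of 11.13 for THBD, 7.07 for TFPI, 7.45 for F5 and 11.28 for PLAU. Of all 17999 probe sets past the filter, 0.00556% had an adjusted p under 0.05 between regenerated and native cells in CHL pigs, 0.0389% in FO pigs and 0.289% in control pigs, in limma fits with the animal as a block. No call is given for the 4 genes, since these differences chose them.

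Thrombomodulin was higher in regenerated than in native cells of 18 of the 20 animals. In CHL pigs the THBD signal had a lowest, median and highest value of 775, 5007 and 8798 in regenerated cells, against 1651, 2685 and 4954 in native cells. In FO pigs these values were 682, 2494 and 9528 in regenerated cells, against 443, 1568 and 3336 in native cells. In control pigs they were 1544, 3444 and 7251 in regenerated cells, against 684, 1381 and 4621 in native cells. The groups overlapped in every diet, with an SD between animals of 0.62 to 1.49 log2 in the 6 groups, so the direction is read within animals.

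The THBD difference within an animal averaged 0.29 ± 1.12 log2 in CHL pigs, 0.70 ± 0.93 log2 in FO pigs and 1.07 ± 0.78 log2 in control pigs (SD, n = 6, 6 and 8), or 1.22-fold, 1.62-fold and 2.10-fold. In CHL pigs 4 animals had regenerated cells higher by 0.83 to 1.08 log2, while CHL animals 1 and 4 had them lower, at -1.50 and -0.73 log2. CHL animal 1 held 775 in regenerated cells, against 2217 in native cells. Without it the CHL mean was 0.65 log2, and without CHL animal 5 it was 0.13 log2. All 6 FO animals and all 8 control animals had a higher signal in regenerated cells. The FO mean rested in large part on FO animal 1, with 9528 in regenerated cells against 1622 in native cells, a difference of 2.54 log2, and without this animal it was 0.33 log2. Among controls the largest differences were 2.40 log2 in animal 4 and 1.83 log2 in animal 5, 2 of the pairs whose arrays did not vary together. The smallest was 0.11 log2 in animal 3.

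Tissue factor pathway inhibitor was lower in regenerated cells of 15 of the 20 animals. In CHL pigs the TFPI signal had a lowest, median and highest value of 66.3, 109 and 140 in regenerated cells, against 63.7, 172 and 391 in native cells. In FO pigs the values were 24.9, 51.3 and 159 in regenerated cells, against 51.4, 140 and 268 in native cells. In control pigs they were 48.3, 85.7 and 291 in regenerated cells, against 42.1, 222 and 558 in native cells. These are dim signals, and the ranges of regenerated and native cells overlapped in each diet.

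The TFPI difference averaged -0.53 ± 0.71 log2 in CHL pigs, -1.08 ± 1.44 log2 in FO pigs and -0.75 ± 0.87 log2 in control pigs (SD, n = 6, 6 and 8). FO pigs split into animals 1, 3 and 6, at -2.72, -2.08 and -2.29 log2, and animals 2, 4 and 5, at 0.32, -0.17 and 0.47 log2. In the first 3 the regenerated signals were 27.0, 24.9 and 30.1, the lowest TFPI signals of all 40 arrays. FO animal 3 is the one with a degraded regenerated array and FO pair 6 the one with unlike animal numbers in its labels. The FO mean was -0.88 log2 without animals that had a degraded array and -0.84 log2 without the 3 pairs whose arrays did not vary together, a choice made after seeing the data. With a pseudocount of 64 in place of 16 the FO mean was -0.72 log2. Control animal 8 went the other way, with 96.0 in regenerated cells against 42.1 in native cells, a difference of 0.95 log2, and the other 7 controls ran from -1.70 to -0.07 log2.

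Factor V was lower in regenerated cells of 19 of the 20 animals, the most even direction of the 4 genes over these pairs. In CHL pigs the F5 signal had a lowest, median and highest value of 41.1, 82.5 and 211 in regenerated cells, against 62.9, 230 and 660 in native cells. In FO pigs the values were 75.5, 127 and 318 in regenerated cells, against 100, 305 and 414 in native cells. In control pigs they were 69.7, 106 and 294 in regenerated cells, against 108, 190 and 722 in native cells. The ranges overlapped in each diet.

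The F5 difference averaged -1.18 ± 0.90 log2 in CHL pigs, -0.77 ± 0.63 log2 in FO pigs and -0.71 ± 0.31 log2 in control pigs (SD, n = 6, 6 and 8), so regenerated cells held 0.44, 0.59 and 0.61 of the native level. CHL animals 1, 2 and 3, which had the brightest native signals of their group at 660, 361 and 473, had the largest differences, at -1.57, -1.91 and -2.29 log2. CHL animal 4, with 80.9 in regenerated cells against 77.4 in native cells, was the 1 exception among the 20 pairs. The 8 control animals lay between -1.25 and -0.32 log2, the narrowest spread of the 4 genes in controls. Leaving out 1 animal at a time kept the control mean between -0.76 and -0.63 log2.

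Urokinase differed in direction between the diets. It was higher in regenerated cells of 4 of 6 CHL pigs and 5 of 6 FO pigs, and in 1 of 8 control pigs. In CHL pigs the PLAU signal had a lowest, median and highest value of 1460, 2848 and 6513 in regenerated cells, against 250, 2059 and 4991 in native cells. In FO pigs the values were 1230, 2670 and 5716 in regenerated cells, against 458, 2611 and 4538 in native cells. In control pigs they were 1302, 1532 and 7128 in regenerated cells, against 1744, 3365 and 6579 in native cells. The ranges overlapped in each diet, and the 10 animals with a higher and 10 with a lower regenerated signal left a mean near 0, at 0.10 ± 1.24 log2 over all 20 pairs.

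The PLAU difference averaged 0.93 ± 1.58 log2 in CHL pigs, 0.38 ± 0.63 log2 in FO pigs and -0.74 ± 0.80 log2 in control pigs (SD, n = 6, 6 and 8). The CHL mean came from 2 animals, animal 1 with 6513 in regenerated cells against 982 in native cells and animal 3 with 2428 against 250, differences of 2.71 and 3.20 log2. The other 4 CHL animals lay between -0.31 and 0.13 log2, and the CHL mean was 0.48 log2 without animal 3. The native signals of CHL animals 1 and 3 and of FO animal 1, at 982, 250 and 458, were the 3 lowest PLAU values of all 40 arrays. FO animal 1 had the largest FO difference, at 1.40 log2, without which the FO mean was 0.18 log2, and FO animal 6 the only negative one, at -0.59 log2, without which it was 0.58 log2. Control animal 5 had the largest difference below 0, with 1461 in regenerated cells against 6579 in native cells, and control animal 3 alone was higher, with 7128 against 5307. The difference in PLAU between regenerated and native cells was 1.67 log2 larger in CHL than in control pigs and 1.12 log2 larger in FO than in control pigs. Both comparisons use the same 8 control pairs, and no probe set of the 17999 passed the test of either difference (0% called), with 2625 and 756 at an unadjusted p under 0.05.

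**Figure D1:**
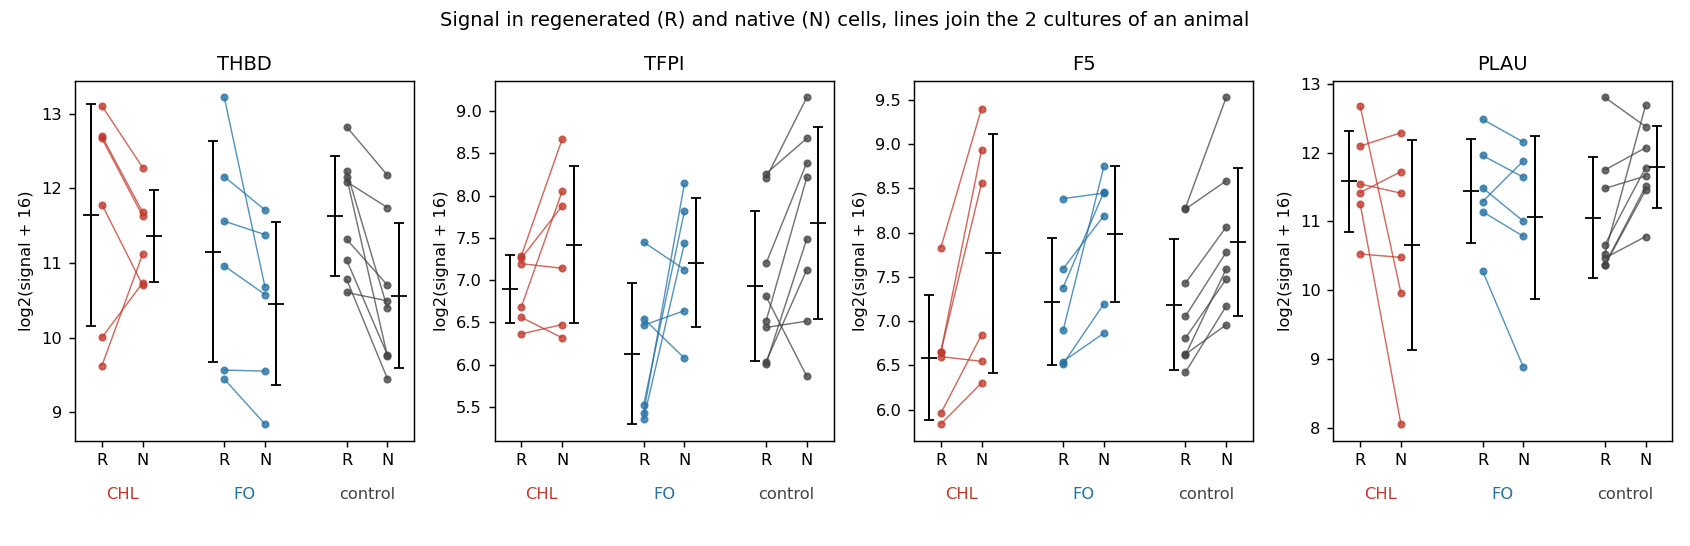
Level of THBD, TFPI, F5 and PLAU as log2(signal + 16) in regenerated (R) and native (N) cells of CHL, FO and control pigs. Points are cultures, lines join the 2 cultures of an animal, and black bars are the group mean ± SD (n = 6, 6 and 8). F5 lines go up from R to N in 19 of 20 animals and THBD lines go down in 18, while PLAU lines go down from R to N in most CHL and FO pigs and up in 7 of 8 controls.

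In 18 of the 20 animals THBD was higher and F5 lower in regenerated cells, and in 13 TFPI was lower as well. Taken alone, THBD was higher in 18, F5 lower in 19 and TFPI lower in 15. The genes were chosen by these differences, so the joint counts do not show that the genes moved together. Across the 40 arrays the levels of F5 and TFPI had a Pearson r of 0.53 and those of PLAU and THBD one of -0.41. The 40 points are 2 cultures from each animal and share the array's scaling, so these are descriptions. The other 4 pairings of the genes lay between -0.20 and -0.02.

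Ordered by their group means, THBD ran from 11.65 log2 in regenerated CHL cells to 10.46 log2 in native FO cells, TFPI from 7.68 log2 in native control cells to 6.13 log2 in regenerated FO cells, F5 from 7.98 log2 in native FO cells to 6.59 log2 in regenerated CHL cells, and PLAU from 11.79 log2 in native control cells to 10.65 log2 in native CHL cells. For TFPI and F5 the 3 native groups came before the 3 regenerated groups. In all 4 orders every step between neighbouring groups was smaller than the larger of their 2 SDs.

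Smooth muscle markers moved with some of these differences. The mean of the 12 smooth muscle genes was higher in regenerated cells of 2 of 6 CHL pigs, 4 of 6 FO pigs and 7 of 8 control pigs, by 0.01 ± 0.48, 0.57 ± 0.92 and 1.02 ± 0.86 log2 on average (SD). Among controls the 2 animals with the largest marker shifts, animals 5 and 4 at 2.63 and 1.73 log2, also had the 2 largest THBD differences. Control animals 8 and 3, with marker shifts of -0.02 and 0.05 log2, had the 2 smallest THBD differences and the 2 highest PLAU differences, at -0.18 and 0.42 log2. FO animal 1, with a marker shift of 1.22 log2, had a THBD difference of 2.54 log2, but FO animal 6, at 2.01 log2, one of 0.38 log2. THBD was at 1.04 and 0.83 log2 in CHL animals 2 and 3, with marker shifts of -0.15 and -0.35 log2. It was at -1.50 and -0.73 log2 in CHL animals 1 and 4, with shifts of -0.20 and -0.30 log2. CHL animals 5 and 6, at 1.08 and 1.02 log2, had shifts of 0.92 and 0.12 log2. In CHL animals 1 and 3, where PLAU differed most, the marker list was lower in regenerated cells, at -0.20 and -0.35 log2, within a CHL range of -0.35 to 0.92 log2. F5 was lower in control animal 3, at -1.25 log2, as well as in control animal 5, at -0.32 log2. TFPI in FO animals 1, 3 and 6 was at -2.72, -2.08 and -2.29 log2, beside marker shifts of 1.22, 0.47 and 2.01 log2. FO animals 2, 4 and 5, at 0.32, -0.17 and 0.47 log2, had shifts of -0.06, 0.31 and -0.55 log2. Control animals 5, 8, 3 and 7 had TFPI at -1.70, 0.95, -0.96 and -0.07 log2, with shifts of 2.63, -0.02, 0.05 and 0.77 log2. TFPI was lowest among CHL pigs in animals 1 and 3, at -1.38 and -1.37 log2, where the marker shift was below 0. The mean shift of the endothelial list was -0.01 log2 in CHL pigs, -0.21 log2 in FO pigs and -0.26 log2 in control pigs. Its lowest values were in FO animal 6 (-0.81 log2) and control animals 4 and 5 (-0.72 and -0.56 log2). Genes of this list differed in direction. In control pairs SELE averaged -2.14 and FLT1 -1.22 log2, while PECAM1 averaged -0.07, CDH5 0.15 and ENG 1.02 log2. The part of these markers in the 4 genes' differences was not tested. Without the 3 pairs whose arrays did not vary together, the control means were 0.72 log2 for THBD, -0.53 log2 for TFPI, -0.78 log2 for F5 and -0.44 log2 for PLAU.

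**Figure D2:**
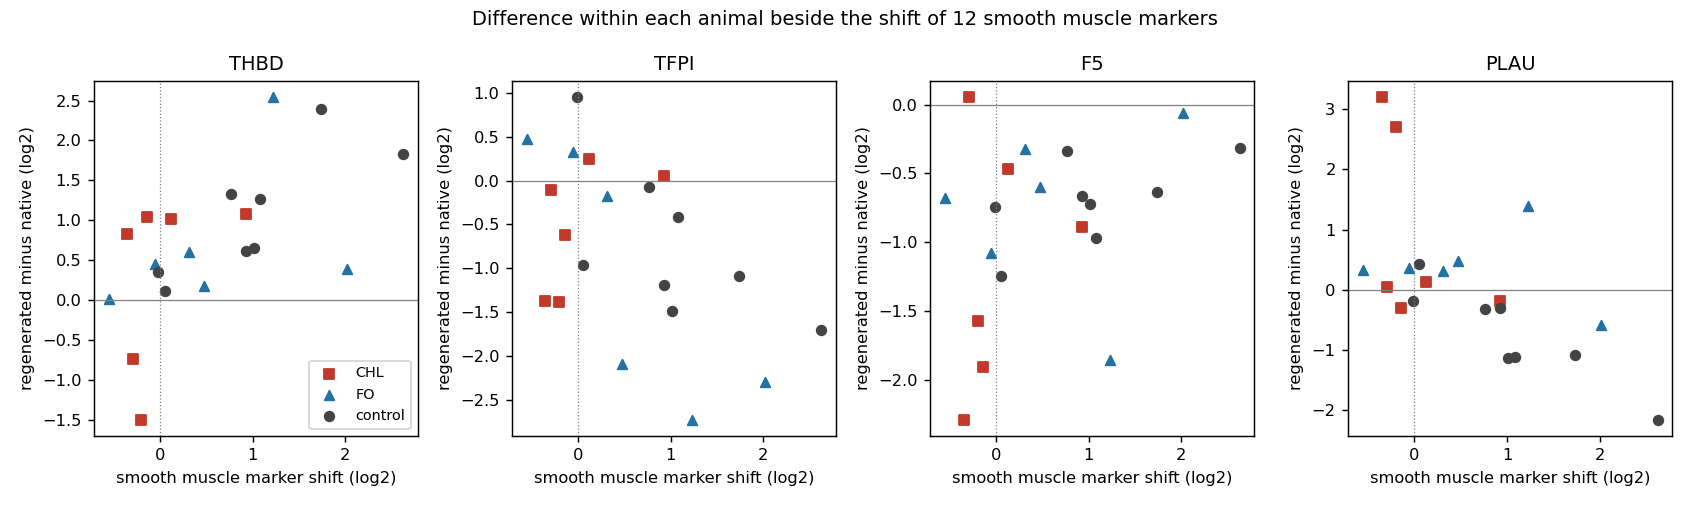
Difference between regenerated and native cells of each animal (y axis, log2) beside the shift of the mean of 12 smooth muscle markers in the same animal (x axis, log2), for each of the 4 genes. Squares are CHL, triangles FO and circles control pigs. Control circles lie higher for THBD and lower for PLAU at larger marker shifts, with control animals 4 and 5 farthest right, while the 2 high CHL squares of PLAU lie at shifts below 0. For TFPI the triangles of FO animals 1, 3 and 6 lie lowest and farthest right among FO pigs. The lowest CHL squares of TFPI, those of CHL animals 1 and 3, lie at shifts below 0.

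The labels of the control group fall into 2 styles, which may mark batches, and CHL and FO animals have 1 style only. The control difference of THBD averaged 1.24 ± 0.92 log2 in the 5 animals with MA numbers and 0.78 ± 0.51 log2 in the 3 with artery names. That of F5 was -0.77 ± 0.35 and -0.60 ± 0.23 log2, and that of PLAU was -0.85 ± 0.97 and -0.55 ± 0.52 log2. For TFPI the averages were -1.07 ± 0.46 log2 with MA numbers and -0.20 ± 1.22 log2 with artery names (SD throughout), so within the artery-named controls the mean TFPI difference was small beside its spread.

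The design also compares diets within 1 kind of cell. Of all probe sets, 0.0111% passed between CHL and control pigs in native cells, 2 in number and both lower, and 0% in native FO, regenerated CHL and regenerated FO cells. At an unadjusted p under 0.05 there were 1648 in regenerated CHL cells, 811 in regenerated FO cells, 2693 in native CHL cells and 1636 in native FO cells. For the 4 genes the limma estimates are given with their SE and no call. Because only control pigs span both label styles, each estimate is also given over the animals with artery names, which leaves 3 controls.

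PLAU had the largest diet differences of the 4 genes in native cells, at -1.14 ± 0.55 log2 in CHL against control pigs and -0.73 ± 0.55 log2 in FO against control pigs (SE). The 3 dim native cultures, CHL animals 1 and 3 and FO animal 1, carried much of both. Without CHL animal 3 the CHL estimate was -0.62 log2, and without FO animal 1 the FO estimate was -0.30 log2. In regenerated cells PLAU differed by 0.53 ± 0.40 log2 in CHL pigs and by 0.39 ± 0.40 log2 in FO pigs (SE). Over the animals with artery names the PLAU estimates were 0.39 and 0.24 log2 in regenerated CHL and FO cells and -1.09 and -0.69 log2 in native CHL and FO cells.

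THBD differed by 0.80 ± 0.46 log2 in native cells of CHL against control pigs and by -0.11 ± 0.46 log2 in native cells of FO pigs (SE). In regenerated cells it differed by 0.02 ± 0.62 log2 in CHL pigs and by -0.48 ± 0.62 log2 in FO pigs. Over the animals with artery names the THBD estimates were -0.25 and -0.75 log2 in regenerated CHL and FO cells and 0.23 and -0.67 log2 in native CHL and FO cells. Smooth muscle markers of native cells averaged 9.48 ± 0.65 log2 in CHL pigs and 8.63 ± 0.89 log2 in control pigs (SD), with FO animals between 8.55 and 9.73 log2, and their part in the diet differences was not tested.

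TFPI had its largest diet difference in regenerated cells of FO pigs, at -0.80 ± 0.38 log2 (SE), where its 3 lowest signals lie. Its other estimates were -0.04 log2 in regenerated CHL cells, -0.26 log2 in native CHL cells and -0.47 log2 in native FO cells, each with an SE of 0.38 to 0.48. Over the animals with artery names the TFPI estimates were 0.47 and -0.29 log2 in regenerated CHL and FO cells and 0.80 and 0.59 log2 in native CHL and FO cells.

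F5 differed by -0.60 ± 0.37 log2 in regenerated CHL cells (SE). Its other estimates lay between -0.13 and 0.09 log2, smaller than their SE of 0.37 to 0.49. Over the animals with artery names the F5 estimates were -0.11 and 0.52 log2 in regenerated CHL and FO cells and 0.46 and 0.68 log2 in native CHL and FO cells.

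**Figure D3:**
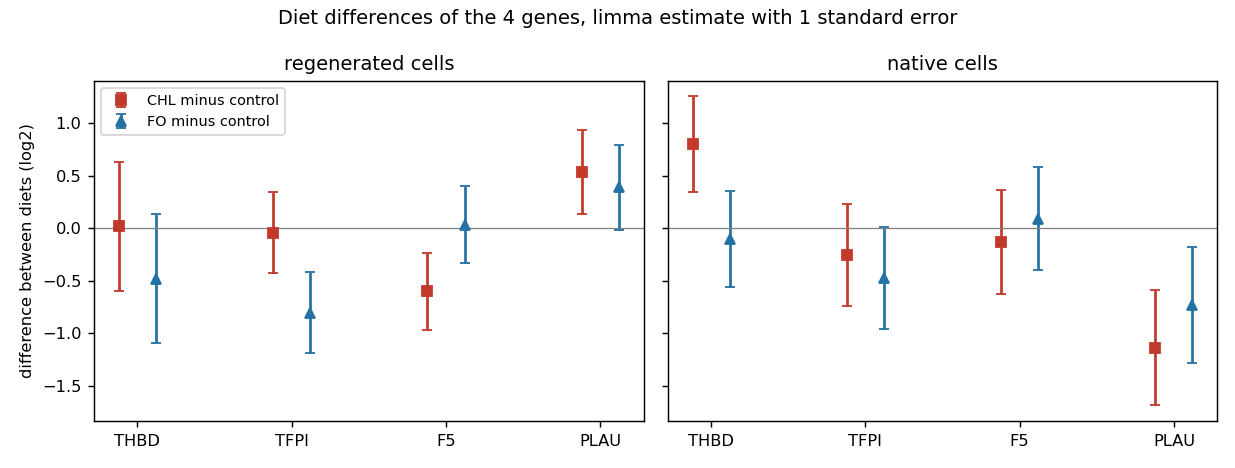
Differences of the 4 genes between CHL or FO and control pigs (y axis, log2) in regenerated cells and in native cells, as limma estimates with bars of 1 standard error. PLAU estimates lie above 0 in regenerated and below 0 in native cells. The PLAU bar in regenerated FO cells reaches 0, as do the bars of most estimates of the other genes.

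Other genes of the pathway were read from lists of clotting factors and their helpers, anticoagulants, fibrinolysis genes, protease-activated receptors and 2 transcription factors known to act on THBD. Found under a name were 9 of 20 procoagulant genes, 9 of 13 anticoagulant genes, 7 of 11 fibrinolysis genes, 1 of 4 protease-activated receptors and both transcription factors. The array may hold the others in probe sets without a name. Of those found 7, 8, 5, 1 and 1 passed the filter, the 4 genes above included. Of the 18 tested genes beside the 4, none passed in any of the 9 comparisons, against 0% to 0.289% of all probe sets, and the lowest adjusted p was 0.0626. Their median difference between regenerated and native cells was 0.00 log2 in CHL, -0.04 log2 in FO and 0.05 log2 in control pigs, beside medians of 0.02, -0.00 and -0.02 log2 over all probe sets.

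Among fibrinolysis genes SERPINB2, the plasminogen activator inhibitor type 2 that inhibits urokinase, had the largest estimate. It was -2.20 ± 0.60 log2 in regenerated against native control cells (SE, limma, adjusted p = 0.0626) and was lower in 8 of 8 control pairs. It passed when control animal 3, control animal 8 or FO animal 6 was left out. In the CHL and FO pairs SERPINB2 averaged -0.35 ± 1.93 and -1.34 ± 1.93 log2 (SD), lower in 2 and 5 of 6 animals. PLAT, the tissue-type plasminogen activator, was higher in regenerated cells of 5 of 6 CHL, 6 of 6 FO and 8 of 8 control animals, by 0.43 ± 0.49, 0.70 ± 0.86 and 0.57 ± 0.37 log2 (SD). PLAT was -0.88 ± 0.22 log2 in regenerated cells of CHL against control pigs (SE, adjusted p = 0.364). S100A10, a subunit of a cell surface receptor for plasminogen activation, and its partner ANXA2 lay between -0.36 and 0.78 log2 and between -0.09 and 0.15 log2 in the 7 comparisons plotted for the pathway. The CHL minus control difference of the S100A10 pairs was -0.84 ± 0.36 log2 (SE, adjusted p = 0.325).

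In the anticoagulant list, SERPINA5 encodes the protein C inhibitor, which acts against the protein C that inactivates factor Va. SERPINA5 was 0.63 ± 0.21 log2 higher in regenerated control cells (SE, adjusted p = 0.0823), in 8 of 8 pairs. The CHL and FO pairs of SERPINA5 averaged 0.06 ± 0.57 and -0.10 ± 0.90 log2 (SD), higher in 4 and 2 of 6 animals. PROS1, which encodes protein S, the cofactor of activated protein C, averaged -0.33, 0.16 and 0.61 log2 in CHL, FO and control pairs, and its CHL minus control difference was -0.94 ± 0.35 log2 (SE, adjusted p = 0.316). TFPI2, a relative of TFPI that inhibits plasmin and other proteases, was lower in regenerated cells of all 6 FO animals, at -1.08 ± 0.68 log2 (SD). In regenerated cells of FO against control pigs TFPI2 was at -0.92 ± 0.25 log2 (SE, adjusted p = 0.970). SERPINE2, a thrombin inhibitor, was at -0.48 ± 0.20 log2 in regenerated control cells (SE, adjusted p = 0.128).

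Among procoagulant genes F3, tissue factor itself, spread more than any of the 4 genes. Native cells averaged 7.86 ± 1.95 log2 in CHL pigs, 9.67 ± 2.86 log2 in FO pigs and 10.61 ± 1.87 log2 in control pigs (SD). The CHL minus control difference in native cells was -2.75 ± 1.08 log2 (SE, adjusted p = 0.241). The F3 differences in the pairs had the same signs as those of PLAU, with 2.06 ± 3.17, 0.84 ± 2.54 and -0.52 ± 1.54 log2 in CHL, FO and control pairs (SD), and each spread exceeded its mean. F2, the prothrombin gene, was 0.86 ± 0.30 log2 higher in regenerated control cells (SE, adjusted p = 0.0863), in 7 of 8 pairs. The CHL and FO pairs of F2 averaged 0.73 ± 0.78 and 0.63 ± 0.99 log2 (SD), higher in 5 of 6 animals of each diet. FGL2, fibrinogen-like protein 2, averaged -0.92 ± 0.70 log2 in CHL and -0.92 ± 0.61 log2 in FO pairs and -0.06 ± 0.57 log2 in control pairs (SD), and its FO test gave an adjusted p of 0.259. VKORC1, part of the vitamin K cycle that clotting factors need, had a CHL minus control difference of -0.77 ± 0.26 log2 (SE, adjusted p = 0.316).

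The protease-activated receptors, of which several are cut by thrombin, were represented by F2RL1 alone, a receptor that other proteases such as trypsin activate and thrombin does not activate directly. F2RL1 was 0.67 ± 0.28 log2 higher in regenerated than in native CHL cells (SE, adjusted p = 0.779). Of the transcription factors KLF4 was at -0.65 ± 0.25 log2 in regenerated control cells (SE, adjusted p = 0.106), opposite in sign to THBD there, and KLF2 lay below the filter.

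**Figure D4:**
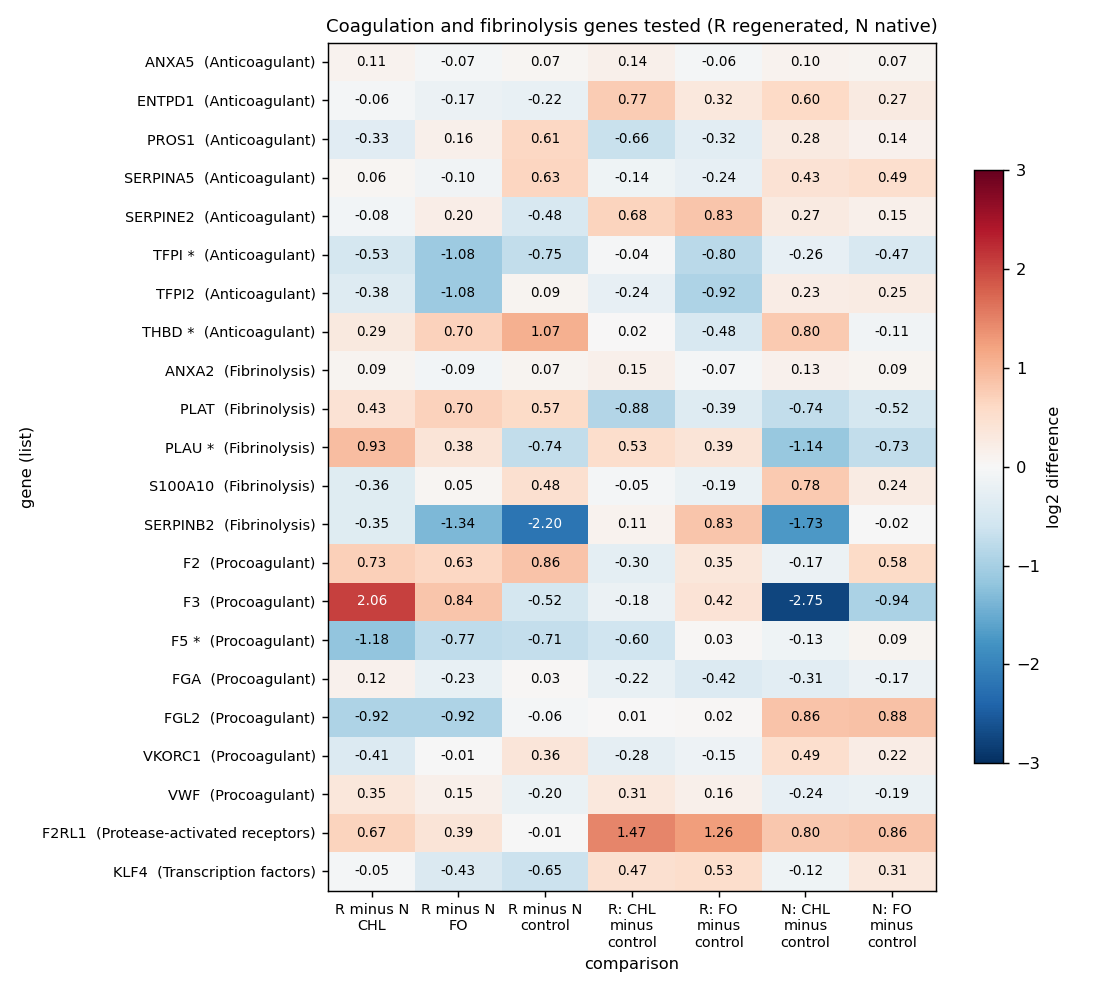
Differences (log2, colour and printed number) of the 4 genes, marked with a star, and the 18 other tested pathway genes in 7 comparisons, with regenerated cells as R and native cells as N. SERPINB2 in control pairs and F3 in native CHL cells are the darkest blue cells, at -2.20 and -2.75 log2, and none of the other pathway genes passed the threshold in any column.

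For each of the 4 genes, the 3 named genes of most similar pattern were ranked by Pearson r of the log2 level over the 40 arrays, among 1923 genes with 1 probe set each. THBD was closest to CST3, MTCH1 and PEG10, with r of 0.77, 0.77 and 0.76. Of the 3 for TFPI, KITLG had an r of 0.80 and EIF4E one of 0.76. F5 had weaker companions, ERP29, OLR1 and LRFN5, each with an r of 0.65. PLAU was closest to ENTPD7, VEGFA and M6PR, with r of 0.82, 0.81 and 0.79. Without the 2 pairs that hold a degraded array, over 36 arrays, the values of these genes lay between 0.64 and 0.82. The order changed there, with EIF4E at rank 7 for TFPI, OLR1 at rank 6 for F5 and M6PR at rank 6 for PLAU. The other genes named stayed within rank 3. The arrays share animals and scaling, so the values describe these arrays and carry no p.

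The authors' deposited tables list fold changes for the 4 genes under several settings. In the authors' deposited table of control pairs, 24 fold changes of THBD, TFPI and F5 equalled the ratios of the signals within 1%. For PLAU the authors' deposited table from the guided workflow gives regenerated cells as 1.82-fold up in CHL and 1.67-fold down in control pigs, and native CHL cells as 2.23-fold down against native control cells. The averages computed here for the same comparisons are 1.91-fold up, 0.60 of the native level and -1.14 log2. For F5 the authors' deposited table gives regenerated cells as 2.31-fold down in CHL pigs, and for TFPI as 2.40-fold down in FO pigs. For THBD the authors' deposited table of MAS5 values gives 1.63-fold up in FO and 2.11-fold up in control pigs. The authors' deposited table of changed genes, which gives log2 native over regenerated, holds -0.01 for THBD in CHL and -1.47 in control pigs, where the pairs here gave 0.29 and 1.07 log2 for regenerated over native, and 1.21 for PLAU in control pigs against -0.74 here. The fold of TFPI in control pigs, 1.59, stands as down under both orders of regenerated and native cells in 2 of the authors' deposited tables. The signals here were lower in regenerated cells of 7 of 8 control pigs. This is the direction of the column headed regenerated over native, so the other header stands in the reverse order.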

How the data were processed

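RNA of 40 cultures was hybridised to Affymetrix porcine arrays, 1 array each. The deposited intensities are linear MAS5 signals, per the submitters' processing notes, and no MAS5 version is given in the sources used here. The deposited fold ratios and log2 fold changes are the authors' own, per the file headers, and were only quoted. All columns used are of these samples.

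Groups and replicate numbers come from the labels. The design text states a paired comparison of both cell sources of each animal, so the animal was a block. As a check, the deviations of paired arrays from their group means correlated above 0.1 in 17 of 20 pairs and below 0 in 3 (median 0.51, against -0.05 between unpaired arrays). Values were log2(signal + 16). The 124 control probe sets of 24123 were removed, as were those whose mean fell in the lowest 25% of the rest, and 17999 were tested. Models were fitted with limma 3.58.1 in R 4.3.3 and checked on simulated data, and figures were drawn with matplotlib 3.10.9. Regenerated and native cells were compared on all arrays, and diets within each cell source on its 20 arrays. P-values were two-sided and adjusted by Benjamini-Hochberg over all probe sets, threshold 0.05. In the limma fits of regenerated against native cells they rest on the spread of the pair differences, pooled over the diets. Between diets they rest on the spread of levels between animals. The number of arrays limits the precision, and no detection calls were used. Arrays with a 3'/5' ratio of actin or GAPDH over 10 were called degraded.

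Names came from the deposited lists, updated through RefSeq genes of the Sscrofa11.1 assembly. Of 12178 listed probe sets 3071 had 1 name, 59 several and 9048 none. A gene is called measured where a named probe set was found, so other genes may be on the array without a name. Titles of a single deposited file that disagreed with the others were not used. The members, lists and tests were chosen with earlier results of these data known. Of each list up to 4 genes with the smallest p in any comparison were named, members aside. Alternatives were other pseudocounts and filters, quantile normalization, no block, the paired test named in the design text, and leaving out animals. Promoter and protein sequences were not analysed here. Results for 2 genes, 1 of a list and 1 of similar pattern, are not reported here.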

Additional observations from a re-analysis of the deposited data

Results flagged for a closer look

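The THBD difference between regenerated and native cells of FO animal 1, at 2.54 log2, stood apart, with a gap to the next pair above Dixon's 95% limit for 6 values. THBD was chosen by such differences, so this is a description and not a test. The other 5 FO pairs lay between 0.01 and 0.60 log2, and both arrays of FO animal 1 were outside the set with degraded RNA. It was the only value set apart among 36 sets of levels and pair differences of the 4 genes, where chance sets apart about 1 in 20. The smooth muscle markers of this animal shifted by 1.22 log2, and their part in this value was not tested.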

How the results depend on the processing

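The results hold 808 values of the 4 genes under 30 alternatives. Pair differences moved by less than 1 SD of the pairs in each. Leaving out 1 animal cannot move a mean that far, and the filter and the block leave it unchanged, so this limit tests little. Diet differences changed sign in 40 values. Over artery-named animals THBD in regenerated CHL cells was -0.25 log2, TFPI in native CHL, native FO and regenerated CHL cells 0.80, 0.59 and 0.47 log2, and F5 in native CHL cells 0.46 log2. THBD in regenerated CHL cells was -0.0588 log2 with quantile normalization, F5 in regenerated FO cells -0.063 log2 without animals with a degraded array, and F5 in native CHL cells 0.0145 log2 without the 3 pairs whose arrays did not vary together, chosen after seeing the data. Leaving out 1 animal at a time gave -0.36 to 0.22 log2 for THBD in native FO, -0.27 to 0.42 for THBD in regenerated CHL, -0.17 to 0.15 for TFPI in regenerated CHL, -0.46 to 0.16 for F5 in native CHL, -0.0621 to 0.32 for F5 in native FO and -0.20 to 0.19 for F5 in regenerated FO cells. The cause was not tested.

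Counts of all probe sets past the threshold varied more. In control pairs, with 52 (18 higher, 34 lower), they were 20 and 156 with pseudocounts of 1 and 64, 22 with a filter at the 50th percentile, 16 without animals with a degraded array, 0 over artery-named animals and 6 without the 3 pairs, and quantile normalization gave 37 higher and 28 lower. With no replicate block the counts were 8 in control pairs and 2 in FO pairs. The paired test named in the design text gave 0 in control, CHL and FO pairs after Benjamini-Hochberg, and 3320, 1221 and 902 at an unadjusted p under 0.05. In CHL pairs 3 passed without the 3 pairs. In FO pairs, with 7, it was 3 with a pseudocount of 1 or the filter at the 50th percentile, and 2 without animals with a degraded array, over artery-named animals or without the 3 pairs. In native CHL cells, with 2, it was 1 with a pseudocount of 64 or the filter at the 50th percentile, 4 with quantile normalization, 6 without animals with a degraded array, and 0 over artery-named animals or without the 3 pairs. In native FO cells 15 passed without animals with a degraded array. Leaving out 1 animal gave 9 (without control animal 5) to 2398 (without control animal 8) in control pairs, 1 to 4 in CHL pairs, 2 to 8 in FO pairs, 0 to 232 (without control animal 8) in native CHL, 0 to 16 (without FO animal 3) in native FO and 0 to 1 in regenerated CHL cells. Among other pathway genes SERPINB2, PLAT and PROS1 passed in control pairs without control animal 8, F2 and SERPINB2 without control animal 3, and SERPINB2 without FO animal 6. Each of the 4 genes has 1 named probe set, so no other named probe set could be tried. Dim signals limit TFPI and F5.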
